A study of Rattus norvegicus with 9 samples.

Results

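The genes described here are 7 matrix metalloproteinases (Mmp2, Mmp7, Mmp8, Mmp9, Mmp12, Mmp13 and Mmp14) and 3 tissue inhibitors of metalloproteinases (Timp1, Timp2 and Timp3), chosen by gene symbol from the 32883 genes counted in rat liver. All 10 members were found in the deposited tables, each as a single row. Bulk RNA-seq was available from 9 livers, 3 from normal rats and 3 each from rats with acute-on-chronic liver failure (ACLF) connected to an empty circuit or to UTOpiA. Bulk RNA does not separate fewer cells of a type from less RNA per cell, and this holds for every level given here. The rats were male Sprague-Dawley, obtained at 8 to 11 weeks of age, and their age when the livers were taken is not stated. Both ACLF groups carried a bile duct ligation (BDL), which obstructs bile flow and models chronic biliary injury, for 21 days and then received 0.25 mg/kg lipopolysaccharide (LPS) into the peritoneum. Extracorporeal circulation of whole blood began 1 h after LPS and ran for 2 h. Livers of both ACLF groups were collected at 24 h from the LPS dose, from rats alive at that time. The empty circuit held neither cells nor an adsorption column. UTOpiA held a granulocyte and monocyte adsorption column together with encapsulated hepatocyte-like cells made from genome-edited human induced pluripotent stem cells. Normal livers had no ligation, no LPS and no circuit, so the contributions of these 3 to a difference between ACLF and normal liver cannot be told apart. The same holds for the column and the cells in UTOpiA.

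Matrix metalloproteinases are zinc-dependent proteases that are made as inactive proenzymes and cut extracellular matrix after activation. Collagenases open the triple helix of fibrillar collagen, gelatinases digest the unwound chains and basement membrane collagen, and membrane-type enzymes act at the cell surface. The tissue inhibitors bind the active site of these proteases, and in liver the balance of both is followed in fibrosis because scar that is not degraded accumulates.

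Library totals ran from 14241172 to 17321677 counts, and 14089 genes had enough counts to be tested. Albumin (Alb), the main secreted protein of hepatocytes, held 13.3% to 14.9% of each normal library and 1.54% to 3.91% of each ACLF library. The summed TPM (a level scaled by gene length and by library) of 9 hepatocyte markers was 148613 to 161278 in the normal and 31759 to 57847 in the ACLF group. Alb, 1 of the 9, was itself at 114722 to 127172 in normal livers and so made up most of the normal sum. Fold changes were therefore taken from counts scaled by trimmed mean of M-values (TMM), and they are not ratios of TPM. With scaling by library size alone, the median log2 fold change of all genes was 0.60 between empty and normal livers and -0.18 between UTOpiA and empty livers, against 0.04 and 0.0012 under TMM. Of the 9 hepatocyte markers, 5 were called lower and 1, Pck1, higher between empty and normal livers, by the thresholds given below. Over all genes these shares were 11.1% and 20.7%.

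The deposited coordinates place 4 of the members in a row on chromosome 8, plus strand. In this order they are Mmp13 (ENSRNOG00000008478, chr8:5522739-5533018), Mmp12 (ENSRNOG00000030187, chr8:5606592-5616493), Mmp8 (ENSRNOG00000009907, chr8:5768811-5778702) and Mmp7 (ENSRNOG00000010507, chr8:5893249-5901049). The interval from the first to the last spans 378 kb and holds 10 genes in the tables, all 10 of them matrix metalloproteinases. The other members lie apart, with Mmp2 at chr19:15542765-15570611, Mmp9 at chr3:161413298-161421520, Mmp14 at chr15:33074441-33083655, Timp1 at chrX:1364786-1369384, Timp2 at chr10:107338465-107386072 and Timp3 at chr7:23544215-23594133. The tables do not name their build, and the labels name rn6. Timp1 overlaps Syn1 and Timp3 overlaps Syn3 on the opposite strand, and the overlapping genes reached at most 22 and 38 counts in a library. Reads of such pairs cannot be told apart without the strand setting of the counting, which is not given in the sources used here. Timp2 overlaps Cep295nl on the same strand, which reached at most 3 counts.

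Promoter sequences of 7 members were matched in RefSeq, on the build GRCr8, and the 250 bases before the transcription start were searched on both strands. Mmp2, Mmp9 and Mmp14 were not matched. TGAGTCA, a site bound by AP-1 (a dimer of Jun and Fos proteins that responds to inflammatory signals), was present in 3 of 7 member promoters and in 3.98% of 27457 promoters of the same length. The match lay at bases 66 to 60 before the start in Mmp13, 80 to 74 in Mmp7 and 87 to 81 in Mmp12. TATAAA, the TATA box, lay at bases 47 to 42 in Mmp13, 43 to 38 in Mmp7 (with a further match at 140 to 135) and 39 to 34 in Mmp12, and on the opposite strand at 30 to 25 in Mmp8, against 13.1% of all promoters. GGGANNNNCC, a motif of NF-kB, was present in Timp2 alone of the 7 (16.8% of all promoters), and TTCNNNGAA, a motif of STAT factors, in Mmp8 alone (7.52%). The promoters of Timp1 and Timp3 held none of these letters in this window. Only exact matches were searched, so near matches such as TGAGTAA in Timp1 were not counted. A match is a description of the letters and no evidence of binding in these livers. The 3 promoters with the AP-1 letters are shown because all of them belong to the chromosome 8 row, and the AP-1 match is in capitals. They are chr8:12782579-12782828 for Mmp13, chr8:12866402-12866651 for Mmp12 and chr8:13132793-13133042 for Mmp7, each on the plus strand of GRCr8.
Mmp13: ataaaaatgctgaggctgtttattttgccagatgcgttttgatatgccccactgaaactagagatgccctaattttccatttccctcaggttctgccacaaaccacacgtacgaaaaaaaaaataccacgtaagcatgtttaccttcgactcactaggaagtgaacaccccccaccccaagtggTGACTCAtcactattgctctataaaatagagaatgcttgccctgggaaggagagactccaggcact
Mmp12: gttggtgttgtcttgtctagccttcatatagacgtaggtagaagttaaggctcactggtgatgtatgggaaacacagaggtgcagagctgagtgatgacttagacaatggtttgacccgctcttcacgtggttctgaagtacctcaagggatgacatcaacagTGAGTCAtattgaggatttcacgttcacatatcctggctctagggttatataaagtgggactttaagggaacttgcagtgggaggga
Mmp7: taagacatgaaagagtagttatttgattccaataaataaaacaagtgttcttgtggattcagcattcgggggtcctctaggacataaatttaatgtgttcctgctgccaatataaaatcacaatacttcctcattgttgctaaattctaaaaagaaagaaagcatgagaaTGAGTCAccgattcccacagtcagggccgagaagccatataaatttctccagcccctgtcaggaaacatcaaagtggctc

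The first question was how these genes differed between ACLF liver with an empty circuit and normal liver. Of the 10 members, 9 had enough counts to be tested and Mmp13 did not. All 9 were called higher in the empty group and 0 lower (edgeR quasi-likelihood test, with an adjusted p under 0.05 by Benjamini-Hochberg over the 14089 genes and a fold change above 2), where 20.7% of all genes tested were called higher and 11.1% lower. Of these 9, Mmp7, Mmp8, Mmp9 and Mmp12 passed the count filter only through the ACLF livers, so their difference from normal liver is partly built into the selection. The other 5 (Mmp2, Mmp14, Timp1, Timp2 and Timp3) had at least 10 counts in every library, and all 5 were called higher. The TPM of the empty and the normal livers did not overlap for any of the 9, and 53.4% of all genes tested were separated in this direction. An exact two-sided permutation test of 3 livers against 3 cannot give a p below 0.1, and it gave 0.1 for each of the 9.

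The second question was whether UTOpiA livers differed from empty-circuit livers. Both comparisons share the empty livers. No member was called by edgeR (0 of 9, as for all genes, 0%), and 1 member, Mmp7, had an unadjusted p under 0.05, against 10.3% of all genes. DESeq2 and limma on log2 TPM with all 9 livers also called 0 members, whereas over all genes DESeq2 called 52 higher and 74 lower (0.364% and 0.518%). All 9 fitted log2 fold changes were below 0, from -2.07 to -0.16 with a median of -0.80, and 49.8% of all genes were below 0 (median 0.0012). The TPM of the UTOpiA and the empty livers overlapped for all 9. Among all genes, 8.62% were separated with UTOpiA lower and 2.43% with UTOpiA higher.

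Against normal liver, UTOpiA livers had 7 of the 9 members called higher and 0 lower, where 18.2% of all genes were called higher and 6.81% lower. Of the 7, Mmp8, Mmp9 and Mmp12 passed the count filter only through the ACLF livers, so their calls are partly built into the selection. The others called were Mmp2, Mmp14, Timp1 and Timp2. The members not called were Mmp7 and Timp3, whereas DESeq2 on all livers called these too, and so all 9. The TPM of all 9 lay above the range of normal livers, as for 39% of all genes. This comparison shares its UTOpiA livers and its normal livers with the others.

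**Figure D1:**
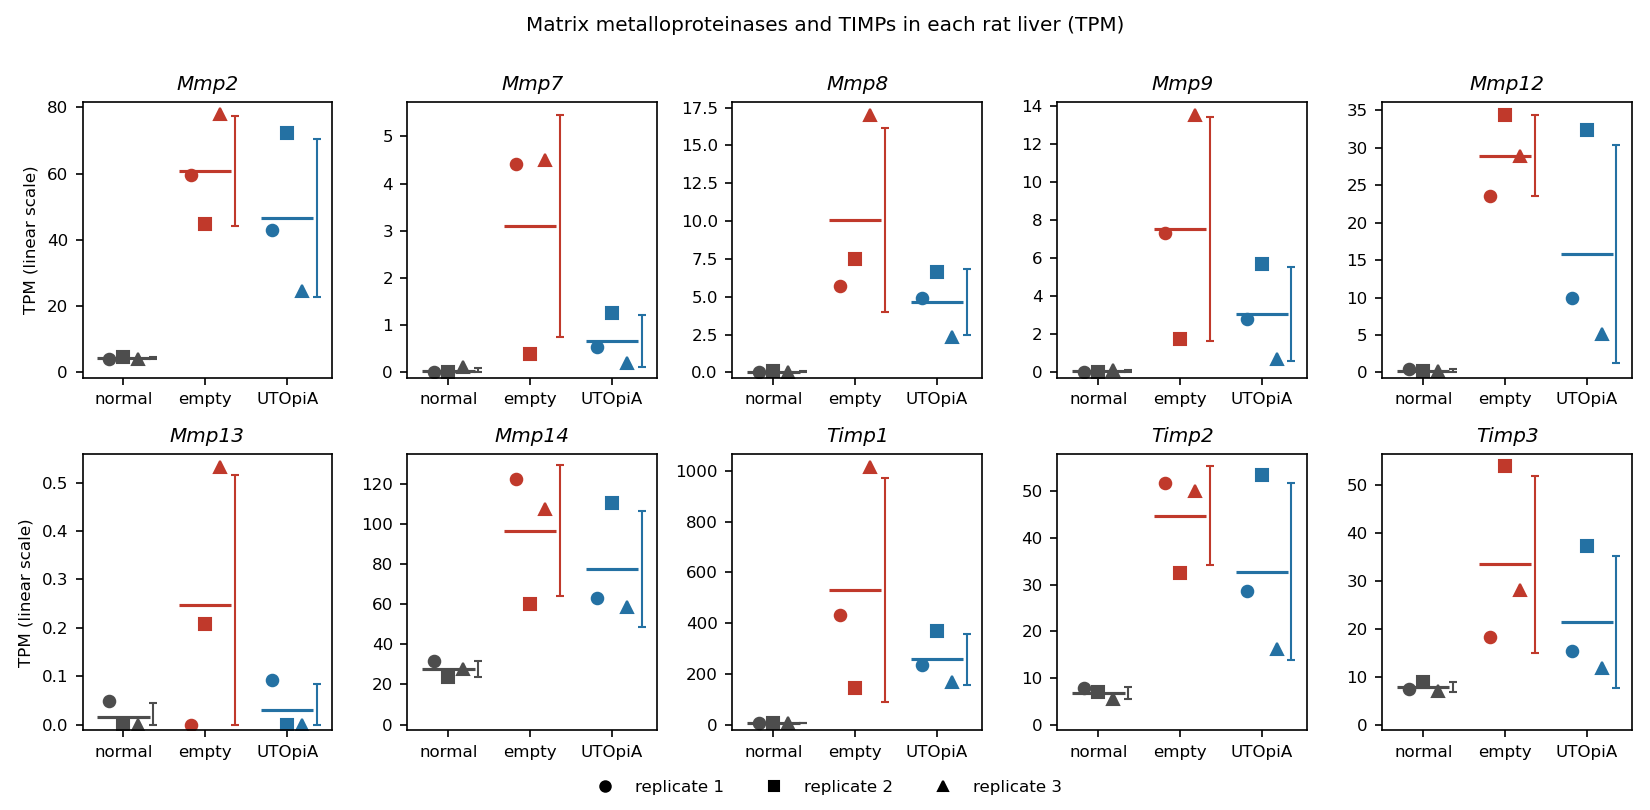
TPM (linear scale, each panel with its own axis) of the 10 members in each of the 9 livers, with the marker shape giving the replicate, a horizontal line for the mean and a bar for the SD (n = 3 per group, cut at 0). Normal livers sit near 0 for most members, the empty and UTOpiA livers overlap in every panel, and the UTOpiA square (replicate 2) is the highest UTOpiA liver in 9 of the 10 panels.

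Mmp8, neutrophil collagenase, is stored in neutrophil granules and cleaves type I collagen. Its TPM was 0, 0.0964 and 0 in the 3 normal livers, 5.71, 7.47 and 17 in the empty livers and 4.93, 6.66 and 2.31 in the UTOpiA livers. Normal livers were at the limit of detection, with 2 counts in all against 697 in the empty and 303 in the UTOpiA livers, while the ranges of the ACLF groups overlapped. The TMM-scaled rate in empty livers was 214 times that in normal livers, with a 95% interval from counting alone of 58.9 to 1767, and the adjusted p from edgeR was 1.42e-04. The fitted log2 fold change of 7.53 rested on the 2 counts of normal replicate 2 and was 10.57 without that liver. In UTOpiA livers it was 113 times the normal rate (30.9 to 933, adjusted p 4.25e-04). Between UTOpiA and empty livers the log2 fold change was -0.95 (SE 0.45, 95% interval -1.97 to 0.07, edgeR adjusted p 0.507), and it ran from -1.20 without empty replicate 1 to -0.42 without empty replicate 3.

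Mmp13, collagenase 3 and the main interstitial collagenase of rodents, was close to absent. It had 1, 0 and 0 counts in normal livers, 0, 5 and 13 in empty livers and 2, 0 and 0 in UTOpiA livers. Empty replicate 3 alone held 13 of the 21 counts, and its TPM of 0.531 was the highest. Mmp13 was not tested across livers, since it did not pass the count filter, and the groups overlapped. From the summed counts, the rate ratio of empty to normal livers was 11 (95% interval 1.74 to 460), and this interval covers counting error alone and not the spread between livers.

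Mmp2, gelatinase A, is made by stellate cells and fibroblasts and is activated at the cell surface by Mmp14. Its TPM was 4.11, 4.60 and 4.01 in normal livers, 59.7, 45 and 77.9 in empty livers and 42.9, 72.1 and 24.7 in UTOpiA livers. Every ACLF liver was above every normal liver, and the ACLF groups overlapped. Mmp2 had the smallest adjusted p of the members in the empty group, with a log2 fold change of 3.31 (SE 0.27, edgeR adjusted p 6.12e-05), 9.95-fold. It was also called higher in UTOpiA than in normal livers (3.06, SE 0.27, edgeR adjusted p 1.08e-04). The difference between UTOpiA and empty livers was -0.25 (95% interval -0.80 to 0.30, edgeR adjusted p 0.756). It was -0.53 without UTOpiA replicate 2 and -0.04 without UTOpiA replicate 3.

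Mmp9, gelatinase B, is released by neutrophils and macrophages, and in humans a part of it is found in a complex with lipocalin 2 (Lcn2). Normal livers had 1, 0 and 3 counts. The TPM was 7.32, 1.76 and 13.5 in empty livers and 2.80, 5.68 and 0.723 in UTOpiA livers. The spread within each ACLF group was wide, 7.68-fold among empty and 7.85-fold among UTOpiA livers, and the ranges overlapped. Against 4 counts in normal livers, the rate ratio was 104 in empty livers (95% counting interval 40.6 to 384, edgeR adjusted p 0.00185) and 48.3 in UTOpiA livers (18.6 to 178, edgeR adjusted p 0.00677). The latter call was lost in limma on log2(TPM + 1), with adjusted p 0.0574 with a filter at a mean TPM of 1 and 0.0888 without, where the largest adjusted p over its 25 alternatives was 0.0888 and the smallest 3.77e-08. The fitted log2 fold change in empty livers was 6.57, and it was 5.94 without empty replicate 3 and 7.82 without normal replicate 3. In UTOpiA livers it was 5.38, and 4.76 without UTOpiA replicate 2. The log2 fold change of UTOpiA against empty livers was -1.19 (SE 0.74, 95% interval -2.86 to 0.49, edgeR adjusted p 0.615). It was -1.81 without UTOpiA replicate 2 and -0.57 without empty replicate 3.

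Mmp7, matrilysin, is a small protease of epithelia, cholangiocytes included. It had 0, 0 and 1 counts in normal livers, 49, 4 and 47 in empty livers and 5, 13 and 2 in UTOpiA livers. In TPM, the empty livers were at 4.42, 0.391 and 4.50 and the UTOpiA livers at 0.535, 1.27 and 0.195. Empty replicate 2, with 4 counts, lay inside the UTOpiA range, and the other empty livers lay above it. Against 1 count in normal livers, the rate ratio was 61.3 in empty livers (95% counting interval 10.7 to 2444, edgeR adjusted p 0.00683) and 14.9 in UTOpiA livers (2.38 to 616, edgeR adjusted p 0.0869, not called). DESeq2 on all livers called Mmp7 higher in UTOpiA than in normal livers (log2 fold change 3.69, adjusted p 0.0456). The fitted value in empty livers was 5.56, and 7.78 without normal replicate 3, which held the only normal count. Mmp7 had the lowest fitted value of UTOpiA against empty livers, -2.07 (SE 0.87, 95% interval -4.03 to -0.12), which did not pass after adjustment over all genes (edgeR adjusted p 0.460). The exact permutation test of its TPM gave p = 0.3. With a liver left out of edgeR, the fitted value ran from -2.75 without UTOpiA replicate 2 to -1.65 without empty replicate 1. Against normal livers, the UTOpiA value was 3.49, and 2.80 without UTOpiA replicate 2.

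Mmp12, macrophage metalloelastase, degrades elastin. Its TPM was 0.419, 0.131 and 0.130 in normal livers, 23.6, 34.4 and 28.9 in empty livers and 9.97, 32.3 and 5.09 in UTOpiA livers. The empty livers were close together, whereas UTOpiA replicate 2 lay within their range and the other 2 UTOpiA livers lay below every empty liver. The log2 fold change was 6.46 in empty livers (SE 0.71, edgeR adjusted p 2.35e-04) and 5.66 in UTOpiA livers (SE 0.71, edgeR adjusted p 6.15e-04), each against 10 counts in normal livers. The former was 7.20 without normal replicate 1, and the latter 4.81 without UTOpiA replicate 2, with the calls kept. UTOpiA against empty livers gave -0.80 (SE 0.47, 95% interval -1.88 to 0.27, edgeR adjusted p 0.596), with -1.64 without UTOpiA replicate 2 and -0.45 without UTOpiA replicate 3.

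Mmp14, membrane-type 1 metalloproteinase, was the most abundant of the 7 proteases in normal liver. Its TPM was 31.7, 23.8 and 27.9 in normal livers, 123, 59.9 and 107 in empty livers and 63.1, 111 and 58.4 in UTOpiA livers. All ACLF livers were above all normal livers, in the empty group by the smallest fold of the members tested. The log2 fold change was 1.28 in empty livers (SE 0.27, edgeR adjusted p 0.00427) and 1.12 in UTOpiA livers (SE 0.27, edgeR adjusted p 0.0106). Without UTOpiA replicate 2 the latter was 0.95 (edgeR adjusted p 0.0368), under the fold threshold and no longer called. UTOpiA against empty livers gave -0.16 (95% interval -0.76 to 0.44, edgeR adjusted p 0.874), and 0.11 without empty replicate 1, the empty liver with the highest Mmp14.

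Timp1, the inducible inhibitor secreted by activated stellate cells and many other cells, changed most among the inhibitors. Its TPM was 5.07, 6.52 and 4.71 in normal livers, 434, 145 and 1015 in empty livers and 234, 368 and 169 in UTOpiA livers. Every ACLF liver was above every normal liver, and the UTOpiA livers lay within the range of the empty livers, which differed 6.99-fold among themselves. The log2 fold change was 6.05 in empty livers (SE 0.67, edgeR adjusted p 2.51e-04), 66.2-fold, and 5.19 in UTOpiA livers (SE 0.65, edgeR adjusted p 6.15e-04), 36.6-fold. Without empty replicate 3 the former was 5.28 and remained past the threshold. UTOpiA against empty livers gave -0.86 (SE 0.52, 95% interval -2.05 to 0.33, edgeR adjusted p 0.609), and -0.09 without empty replicate 3.

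Timp2 inhibits Mmp2 and, together with Mmp14, takes part in its activation. Its TPM was 7.90, 6.94 and 5.45 in normal livers, 51.8, 32.5 and 49.95 in empty livers and 28.7, 53.4 and 16.3 in UTOpiA livers. The ACLF groups overlapped and both were above normal livers. The log2 fold change was 2.21 in empty livers (SE 0.31, edgeR adjusted p 6.03e-04), 1.88 in UTOpiA livers (SE 0.31, edgeR adjusted p 0.00182), and -0.33 between UTOpiA and empty livers (95% interval -0.99 to 0.32, edgeR adjusted p 0.732). The last value was -0.69 without UTOpiA replicate 2 and -0.10 without UTOpiA replicate 3.

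Timp3, which stays bound to the matrix and also inhibits Adam17, had the highest mean TPM of the inhibitors in normal livers, although Timp2 was above it in normal replicate 1. Its TPM was 7.43, 8.95 and 6.97 in normal livers, 18.4, 54.0 and 28.1 in empty livers and 15.4, 37.3 and 11.8 in UTOpiA livers. Empty replicate 2, the lowest empty liver for Timp1, was the highest for Timp3. The log2 fold change was 1.58 in empty livers (SE 0.43, edgeR adjusted p 0.0138). In UTOpiA livers it was 1.06 (SE 0.42, edgeR adjusted p 0.0744), which was not called. DESeq2 on all 9 livers called it (1.06, adjusted p 0.0411), and the adjusted p over 26 alternatives ran from 0.00664 to 0.297. UTOpiA against empty livers gave -0.52 (95% interval -1.45 to 0.41, edgeR adjusted p 0.697), and 0.04 without empty replicate 2.

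**Figure D2:**
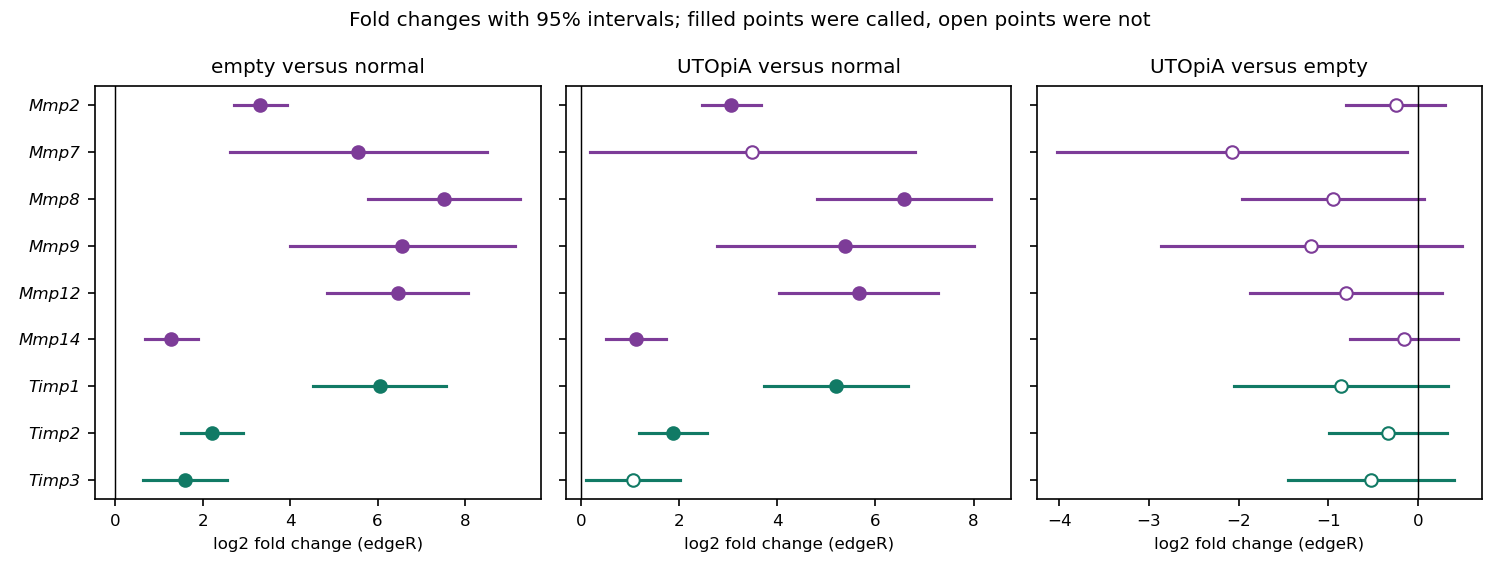
Log2 fold change of the 9 tested members with its 95% interval (edgeR) in each of the 3 comparisons, purple for proteases and green for inhibitors, with filled points for called members and open points for the rest. All 9 are filled between empty and normal livers, 7 between UTOpiA and normal livers and 0 between UTOpiA and empty livers, where the interval of Mmp7 alone lies below 0.

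The order of the mean TPM was the same in both ACLF groups. Timp1 came first (531 ± 443 in empty and 257 ± 101 in UTOpiA livers, mean ± SD, n = 3), then Mmp14 (96.7 ± 32.8 and 77.4 ± 28.9), Mmp2 (60.9 ± 16.5 and 46.6 ± 23.9), Timp2 (44.7 ± 10.6 and 32.8 ± 18.9) and Timp3 (33.5 ± 18.4 and 21.5 ± 13.8). Mmp12 (29.0 ± 5.4 and 15.8 ± 14.5), Mmp8 (10.1 ± 6.07 and 4.63 ± 2.19), Mmp9 (7.53 ± 5.88 and 3.07 ± 2.49), Mmp7 (3.10 ± 2.35 and 0.666 ± 0.548) and Mmp13 (0.247 ± 0.268 and 0.0305 ± 0.0528) followed. Neighbours in this order overlapped in TPM, except Timp1 and Mmp14 in both groups, Mmp12 and Mmp8 in empty livers and Mmp7 and Mmp13 in UTOpiA livers. In normal livers the order was different. Mmp14 came first at 27.8 ± 3.95, above Timp3 (7.79 ± 1.03), Timp2 (6.76 ± 1.23), Timp1 (5.43 ± 0.959) and Mmp2 (4.24 ± 0.315), and the other 5 members were below 0.5 in every normal liver. Timp3 and Timp2, and Timp2 and Timp1, overlapped there.

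Within the UTOpiA group, the TPM of all 9 tested members was highest in UTOpiA replicate 2 and lowest in UTOpiA replicate 3. Among all genes tested, the TPM of 64.7% was highest in replicate 2 and that of 71.2% lowest in replicate 3. In TMM-scaled CPM (counts relative to library size, without gene length), all 9 were again highest in replicate 2, where 36.9% of all genes were. In CPM 8 of the 9 were lowest in replicate 3, against 35.5% of all genes, and Mmp14 was lowest in replicate 1. The empty livers did not share an order. In TPM, Mmp2, Mmp7, Mmp8, Mmp9 and Timp1 were highest in empty replicate 3, Mmp12 and Timp3 in replicate 2, and Mmp14 and Timp2 in replicate 1. Empty replicate 2 was the lowest empty liver for 6 of the 9, and for 36.9% of all genes in TPM. Without it, DESeq2 called Mmp7 (log2 fold change -2.64, adjusted p 0.0292) and Timp1 (-1.32, adjusted p 0.0036) lower in UTOpiA than in empty livers, in a fit that called 1% of all genes lower and 2.56% higher. Without UTOpiA replicate 2 it called Mmp12 lower (-1.68, adjusted p 1.07e-04), where 2.53% of all genes were called lower and 1.66% higher. edgeR called 0 members lower in either case, and over all alternatives the adjusted p of these members ran from those values up to 0.947 for Mmp7 and 1 for Timp1 and Mmp12. These fits with a liver left out of DESeq2 were added after the values had been seen.

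**Figure D3:**
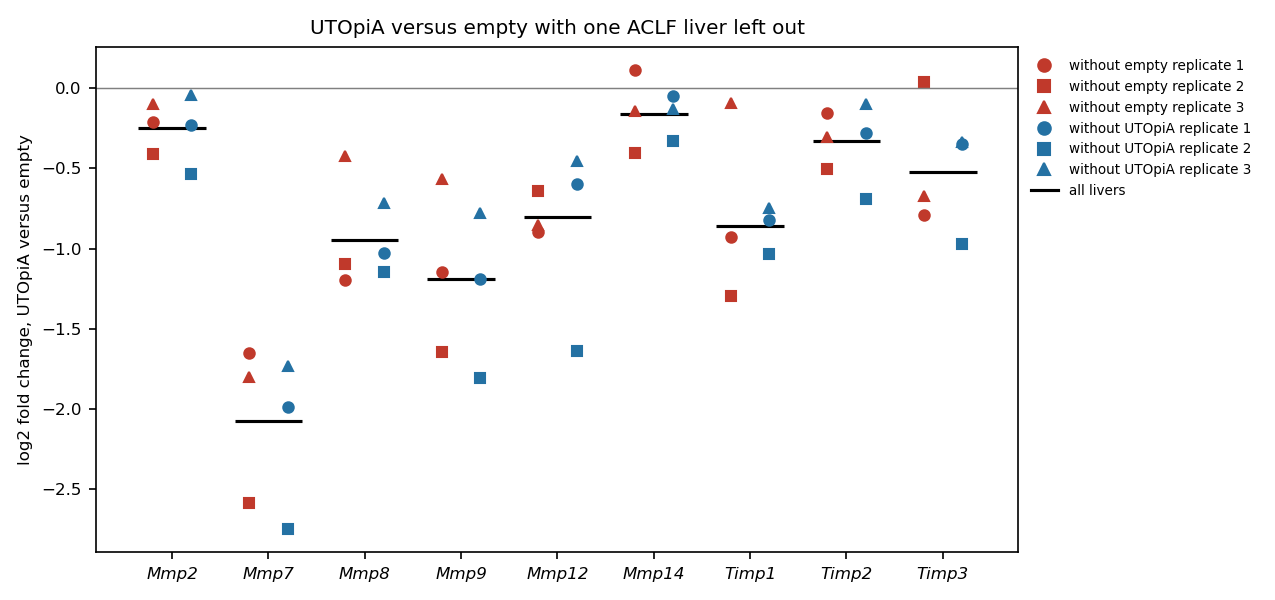
Log2 fold change (edgeR) of UTOpiA against empty livers for the 9 tested members, with all livers (black line) and with each ACLF liver left out (red for an empty liver, blue for a UTOpiA liver, the shape giving the replicate). Mmp14 reached 0.11 and Timp3 0.04 with 1 empty liver left out, whereas the values of the other 7 stayed below 0.

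The balance of proteases and inhibitors was described by summed TPM, without a test. The sum of the 7 proteases was 36.3, 28.6 and 32.2 in normal livers, 223, 149 and 250 in empty livers and 124, 229 and 91.4 in UTOpiA livers. The sum of the 3 inhibitors was 20.4, 22.4 and 17.1, then 504, 232 and 1093, then 278, 458 and 198. The ratio of proteases to inhibitors was 1.65 ± 0.323 (SD, n = 3) in normal livers, 0.438 ± 0.208 in empty livers and 0.470 ± 0.0263 in UTOpiA livers. Each of the 6 ACLF livers was below each normal liver, and the UTOpiA values lay within the range of the empty livers. The makeup of both sums differed too. Mmp14 made up 85.6% of the protease sum in normal livers, 46.0% in empty and 54.3% in UTOpiA livers, and Timp1 made up 27.1%, 80.5% and 83.4% of the inhibitor sum. With Mmp14 left out, the ratio was 0.232 in normal livers, 0.238 in empty livers and 0.215 in UTOpiA livers. With Timp1 left out instead, it was 2.25 ± 0.408, 2.70 ± 0.849 and 2.87 ± 0.370 (SD, n = 3), with overlapping groups and higher means in ACLF than in normal livers. Leaving out either of these 2 members ended the separation of ACLF from normal livers. These are transcript levels and give no measure of protease activity.

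**Figure D4:**
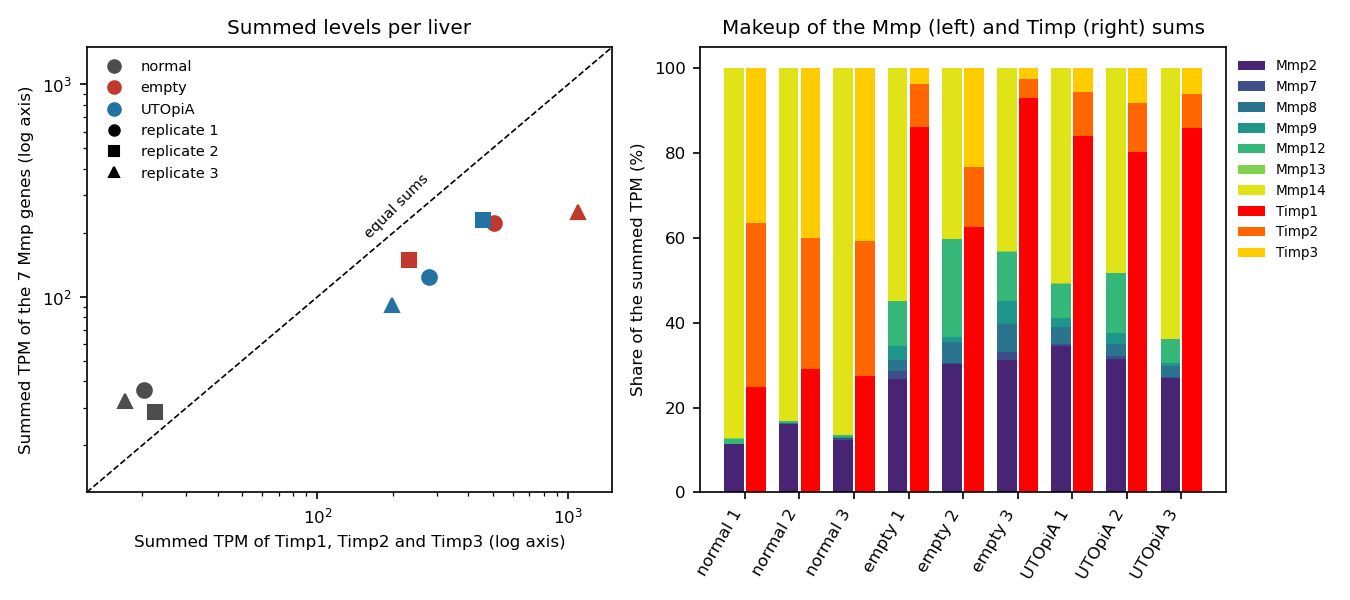
Left, summed TPM of the 7 proteases against that of the 3 inhibitors in each liver, on log axes, with a dashed line at equal sums, colour for the group and shape for the replicate. Right, the share of each member in the protease sum and in the inhibitor sum of each liver (%), where normal livers lie above the dashed line and are led by Mmp14 among proteases, and ACLF livers lie below it and are led by Timp1 among inhibitors.

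Summed markers of neutrophils, macrophages, cholangiocytes and stellate cells were higher in every ACLF than in every normal liver except for the stellate cell sum of UTOpiA replicate 3, which lay below 1 normal liver, and those of endothelial cells were not separated. The summed TPM of 12 neutrophil markers was 2.95 to 7.05 in normal livers, 537, 184 and 1099 in empty livers and 387, 505 and 176 in UTOpiA livers, with Mpo, Elane, Cxcr2, Ltf and Cd177 at 0 in all normal livers, Ltf at 0 in all livers and Cd177 also at 0 in all UTOpiA livers. S100a8 and S100a9 together made up 94.4% to 97.5% of this sum in each ACLF liver, and 5 of the 12 markers had enough counts to be tested. The 6 ACLF livers stood in the same order for this sum as for Mmp9, and for the sum of the other 10 markers too, which was 15.1, 10.4 and 31.4 in empty livers and 10.4, 12.6 and 7.22 in UTOpiA livers. Mmp8 did not follow this order, with empty replicate 2 (TPM 7.47) above empty replicate 1 (5.71) and UTOpiA replicate 2 (6.66). The granule genes Ngp and Camp were highest in empty replicate 2, the empty liver with the lowest sum. The sum of 11 macrophage markers was 314 to 382 in normal livers, 2325, 1224 and 1853 in empty livers and 1187, 2312 and 650 in UTOpiA livers, where Mmp12 was lowest in the same 2 livers, UTOpiA replicates 1 and 3, but among empty livers Mmp12 was highest in replicate 2, which had the lowest macrophage sum. Clec4f, 1 of the 11, ran in another order than the sum, at 32.7, 228 and 14.3 in empty livers and 136, 23.1 and 88.6 in UTOpiA livers. Clec4f and Vsig4 were not called between empty and normal livers. For 10 cholangiocyte markers, which include Krt19 and Epcam, the sum was 26.3 to 37.5 in normal livers, 374, 533 and 760 in empty livers and 246, 513 and 161 in UTOpiA livers. Empty replicate 2 was thus above empty replicate 1 for this sum, and far below it for Mmp7. For 12 stellate cell and fibroblast markers it was 443 to 679 in normal livers, 795, 1151 and 749 in empty livers and 936, 1110 and 669 in UTOpiA livers. Dpt (dermatopontin, a matrix protein) accounted for 68.8% to 81.5% of the sum in each normal liver, against 9.13% to 27.5% in each ACLF liver, and was called lower in empty than in normal livers (-1.81, edgeR adjusted p 0.00458), whereas 8 of the 12 markers were called higher, against 20.7% of all genes. Thy1 of these 8 passed the count filter only through ACLF livers, so its call is partly built in. Without Dpt, chosen after its values were seen, the sum was 116 to 138 in normal, 577 to 999 in empty and 504 to 1009 in UTOpiA livers, with every ACLF liver above every normal liver. Empty replicate 2 was the highest empty liver for this sum with and without Dpt, and the lowest for Mmp2 and Timp1. For 9 endothelial markers it was 133 to 146, 137 to 230 and 119 to 169. No marker of the last 3 types or of macrophages was at 0 in all livers of a group except Trem2, in normal livers. The part of these cell types in the members' differences was not tested.

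Within the chromosome 8 row, the genes between the members had few counts, at most 59 in a liver. Summed over 3 livers, Mmp3 (stromelysin 1) had 3 counts in normal, 74 in empty and 13 in UTOpiA livers, and 59 of the 74 came from empty replicate 3. The same liver held 17 of 19 counts of Mmp10 and 44 of 49 of Mmp27 in the empty group, and it was also the highest for Mmp8 and Mmp13. Mmp12 and Mmp20 of this row were highest in empty replicate 2 instead, and Mmp7 had 49 counts in empty replicate 1 and 47 in replicate 3. Mmp20 had 0 counts in normal livers, 62 in empty and 75 in UTOpiA livers. Mmp1 had 0 counts in all livers and Mmp1b had 2.

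The other metalloproteinases, inhibitors and partners were read from lists written for the pathway, and their counts stand against 20.7% of all genes called higher and 11.1% called lower between empty and normal livers. Of 15 other matrix metalloproteinases, 8 were tested, of which Mmp20, Mmp23 and Mmp24 were called higher and Mmp19 lower in empty than in normal livers. Mmp23 had a log2 fold change of 2.82 (SE 0.33), Mmp24 of 1.76 (SE 0.23) and Mmp19 of -1.55 (SE 0.27), with edgeR adjusted p of 2.56e-04, 4.27e-04 and 0.00147, and Mmp20 (adjusted p 0.0391) is given without a fold because its normal livers were at 0. Mmp20 passed the count filter only through ACLF livers, so its call is partly built in, and it was called in 3 of the 9 edgeR fits with a library left out (adjusted p 0.0748 without empty replicate 2). Both tested inhibitors outside the TIMP family, A2m (alpha-2-macroglobulin, a protease trap in plasma) and Reck (a membrane-anchored inhibitor), were called higher, at 5.64 (SE 1.35) and 1.13 (SE 0.24). A2m ran from 5.02 without empty replicate 1 to 6.20 without empty replicate 2, and Reck was 0.92 without empty replicate 2, under the fold threshold. Of 18 ADAM and ADAMTS proteases tested, which shed surface proteins and cut proteoglycans, 12 were called higher, with Adamts4 at 3.51, and 1, Adamts7 (-1.09), lower. Adamts4 was 2.605 without empty replicate 2 and 4.56 without normal replicate 1, called in both, and Adamts7 was -0.93 without empty replicate 2, no longer called (called in 7 of 9 such fits). Adamts15, Adam8 and Adamts8 of the 12 passed the count filter only through ACLF livers, with at most 9 counts in a normal liver, so that their calls are partly built in and no fold is given. In the plasminogen system, which activates several proenzymes of the family, 7 of 9 were called higher, among them Plat (4.67) and S100a10 (3.25), and Plg (-1.44), the proenzyme made by hepatocytes, was called lower. With scaling by library size alone, Mmp19 remained lower in these lists and Adamts7 and Plg were no longer called. Of the 7 tested activators and partners, Lcn2 (7.62) and Cd44 (6.84) were called higher, and Lcn2 was 5.97 without empty replicate 2, still called. Among cathepsins, Ctss (2.62), Ctsk (2.45) and Ctsl (1.82) of 5 were called higher. Of 19 tested matrix substrates, 15 were called higher and 0 lower, with Dcn at 6.55 (5.94 without empty replicate 1), Vcan at 4.99 and Col1a1 at 4.21. Plaur, the urokinase receptor, and Tnc, counted in the plasminogen and substrate lists, passed the filter only through ACLF livers too, with at most 8 counts in a normal liver each.

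Between UTOpiA and empty livers, edgeR called 0 genes of these lists in either direction. The gene of each list with the smallest unadjusted p was Mmp15 (log2 fold change 0.57, SE 0.16), Reck (-0.10, SE 0.23), Adamts1 (-1.80, SE 0.59), Plaur (-1.24, SE 0.33), Sdc1 (0.88, SE 0.25), Ctss (-0.68, SE 0.29) and Lamb1 (-0.64, SE 0.25), with edgeR adjusted p between 0.332 and 0.913. The value of Adamts1 rested on empty replicate 2, with a TPM of 11.4, 57.4 and 13.1 in empty livers, and was -0.61 without that liver. Reck turned to 0.11 without the same liver. DESeq2 on all livers called Lcn2 higher (2.61, adjusted p 0.00832) and Plaur lower (-1.26, adjusted p 0.00215). Lcn2 had a TPM of 2.95 to 5.03 in normal livers, 290, 2523 and 417 in empty livers and 6310, 5694 and 5359 in UTOpiA livers. Empty replicate 2 was far above the other empty livers. Without it the log2 fold change of Lcn2 was 4.28 in edgeR, which then called it (adjusted p 0.00484), against 2.63 (edgeR adjusted p 0.349) with all livers. DESeq2 called it in 2 of its 6 fits with an ACLF liver left out. Every UTOpiA liver was above every empty liver for Lcn2, while Mmp9 overlapped between these groups and its fitted change had the opposite sign. Plaur had a TPM of 15.4, 20.02 and 21.1 in empty livers and 6.04, 8.46 and 6.25 in UTOpiA livers, with no overlap. Mmp19, lower in ACLF with the empty circuit, had a TPM of 29.1, 27.6 and 25.6 there, 42.3, 29.2 and 45.9 in UTOpiA livers and 61.2, 55.2 and 52.2 in normal livers (UTOpiA against empty 0.77, SE 0.26, edgeR adjusted p 0.398).

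For each tested member, the genes with the most similar profile over the 9 livers were taken as those with the smallest root mean square difference of centred log2 CPM among 14088 genes. The closest were S100a11 to Mmp8 (0.297), Pdk3 and Lamb1 to Mmp2 (each 0.181), Ptgds and Sult5a1 to Mmp9 (0.499 and 0.575), Fcgr3a and Trem3 to Mmp7 (0.442 and 0.444), Trpc6 and Cd44 to Mmp12 (0.372 and 0.420) and Dnase2 and Pld3 to Mmp14 (0.144 and 0.163). Among the inhibitors they were Bcat1 and Mgp to Timp1 (0.423 and 0.467), C1qc and Laptm5 to Timp2 (0.111 and 0.150) and Adamts9 and St3gal5 to Timp3 (0.172 and 0.207). The second gene close to Mmp8 carries only a clone name in the tables (AABR07030823.1, 0.384). No member was among the closest genes of another member.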

How the data were processed

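Bulk liver RNA of 9 rats was sequenced, and each library was put in its group (normal, empty or UTOpiA, 3 each) by its label. The authors aligned the reads with HISAT2 and counted them per gene with featureCounts. For trimming, build and kit, the study's methods name Cutadapt, the mouse build GRCm38 and MGIEasy directional, whereas the labels and the submitters' processing notes name Trimmomatic, rn6 and NEBNext directional. The tables list rat Ensembl genes, with positions given here as deposited. The authors deposited raw counts without normalisation, between 14241172 and 17321677 per library, and TPM scaled by gene length to the same sum in each library.

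Counts were fitted with edgeR 4.0.16 (R 4.3.3) on all 9 libraries with filterByExpr, TMM, 1 mean per group and the robust two-sided quasi-likelihood test. A call needed an adjusted p under 0.05 (Benjamini-Hochberg, 14089 genes) and a fold change above 2. A fold against a few counts is a ratio of rates with an exact 95% interval, which covers counting error alone. TPM of single members were compared by an exact permutation test. The alternatives were DESeq2 1.42.0, limma 3.58.1 on log2(TPM + 1) or log2(TPM + 0.1), other normalisations and count filters, no fold threshold, the 2 groups alone, a replicate block and each library left out. DESeq2 with an ACLF library left out, CPM in place of TPM for overlaps and for the order of livers, the ratio without Mmp14 or Timp1, the marker sums without Dpt or S100a8 and S100a9, and leave-one-out values of the pathway genes were added after the values had been seen. The script was tested on simulated data.

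The genes named are the 10 members, up to 4 called genes per pathway list with the largest change between empty and normal livers, up to 2 per list between UTOpiA and empty livers by p, and the 2 closest profiles of each tested member. A called gene of the plasminogen list is counted but not reported here by name. Genes of the chromosome 8 row, Adamts7, Plg and markers were named in addition. Members and lists were chosen with earlier results of these data known, so no list is independent evidence. Replicates differed by more than sampling noise (chi-square per degree of freedom 18.8 or more for every pair). The p-values measure the spread between livers, and the labels name no batch.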

Additional observations from a re-analysis of the deposited data

How the results depend on the processing

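Every tested member was called higher in empty than in normal livers under each alternative that could test it, 24 to 26 fits per member. The filter of 10 counts in every library tested 5 members and called 5 in that comparison and 4 between UTOpiA and normal livers, by its construction. It called 1644 and 1384 genes higher in these comparisons. With library size alone, 4477 genes were called higher and 682 lower (of the pathway lists 1, Mmp19) between empty and normal livers, and 486 lower between UTOpiA and normal livers. The limma fits called 690, 748 and 693 genes lower (log2(TPM + 1), log2(TPM + 0.1), and log2(TPM + 1) without filter) in the former and 483, 524 and 473 in the latter comparison, and 3036 and 2285 were lower without the fold threshold, of the lists 1, Mmp19, among the latter.

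Between UTOpiA and empty livers, DESeq2 called 52 genes higher and 74 lower (of the lists 1 and 1, Lcn2 and Plaur), and limma without filter called 1 higher, AC121413.2. Leaving out a library in edgeR gave 0 to 32 genes higher and 0 to 22 lower, with 0 to 1 list genes higher and 0 to 3 lower. Leaving out an ACLF library in DESeq2 gave 23 to 353 higher and 26 to 348 lower, 0 to 4 list genes higher and 0 to 11 lower, and 0 to 2 members lower. List genes lower between UTOpiA and normal livers ranged from 0 to 1 in edgeR and from 0 to 2 in DESeq2 with a library left out. The sign turned for Mmp14 without empty replicate 1 (0.11 in edgeR, 0.09 in DESeq2) and for Timp3 without empty replicate 2 (0.037 and 0.013), with ranges over both tools of -0.43 to 0.11 and -1.004 to 0.037 when a library was left out. The ratio of proteases to inhibitors without Mmp14 was 0.232 in normal and 0.215 in UTOpiA livers, and without Timp1 it was 2.25 in normal, 2.70 in empty and 2.87 in UTOpiA livers. Single members at the threshold between UTOpiA and normal livers were called in 4 of 24 fits for Mmp7, 9 of 26 for Timp3, 23 of 25 for Mmp9 and 24 of 26 for Mmp14. Values of members near 0 in normal livers depended on a single normal liver, with Mmp8 at 10.57 without normal replicate 2, Mmp9 at 7.82 and Mmp7 at 7.78 without normal replicate 3, and Mmp12 at 7.20 without normal replicate 1. The cause was not tested.

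Same-numbered libraries shared only a number. The correlations of their deviations were -0.144, -0.183 and -0.147 between UTOpiA and empty livers, where each UTOpiA library correlated best with an empty library of another number, and -0.0156 to 0.0278 between empty and normal livers. With the replicate number as a block, 2746 genes were called higher and 1532 lower between empty and normal livers, 0 between UTOpiA and empty livers, and 2344 higher and 897 lower between UTOpiA and normal livers, with 0 member calls changed. Depth limits Mmp13, Mmp7 and the genes between the members on chromosome 8, where no more than 100 counts fell in any group.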
